A study of Mus musculus with 6 samples.

Results

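The genes examined here mark the dendritic cells of mouse bone marrow: 5 of the plasmacytoid type (Siglech, Tcf4, Irf8, Ccr9 and Ly6d) and 5 of the conventional type (Cd209a, Itgax, Zbtb46, Batf3 and Flt3). They were taken as every probe set that the array's gene annotation assigns to exactly 1 gene symbol when that symbol is on this list. All 10 genes were found, on 23 of the 45037 probe sets analysed, and the annotated probe sets cover 18193 genes in all. The study compared whole bone marrow of 3 untreated mice with that of 3 mice given NOX-A12, on Affymetrix Mouse Genome 430 2.0 arrays with 1 mouse per array. All 6 mice were of the immunodeficient SCID/Bg strain, so the controls carry the same defects as the treated animals. The scid mutation blocks the joining of antigen-receptor gene segments and so the formation of mature T and B cells, and the beige mutation impairs natural killer cells. NOX-A12 is a mirror-image RNA aptamer that binds the chemokine CXCL12. The sources used here do not state its dose, its schedule or the age of the mice.

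Plasmacytoid dendritic cells are the marrow's specialised producers of type I interferon, made when their endosomal receptors sense nucleic acids. Conventional dendritic cells take up antigen and present it to T cells, and fall into a type 1 branch that depends on BATF3 and IRF8 and a type 2 branch marked by lectins such as CD209a. Both arise in the marrow from progenitors that carry the receptor FLT3, and the E protein TCF4 holds cells in the plasmacytoid fate. Reticular cells that make CXCL12 are known to support plasmacytoid cells in the marrow, which is why a CXCL12 inhibitor bears on this lineage. Several of these genes are active in other marrow cells too: Irf8 in monocytes, Tcf4 and Ly6d in the B lineage, Itgax in macrophages and natural killer cells, Zbtb46 in endothelium and Flt3 in early progenitors. In whole marrow, fewer cells of a type and less RNA per cell cannot be told apart.

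TCF4 and its relatives bind E-box motifs. The bases before the start sites of 3 members are shown as examples: the plasmacytoid surface genes Siglech and Ccr9, and the conventional gene Itgax. Each is the stretch of 250 bases before a RefSeq start site in build GRCm38.p6, on the plus strand, with every match to CANNTG in capitals (the motif is its own reverse complement, so both strands are covered).
Siglech, chr7:55767934-55768183: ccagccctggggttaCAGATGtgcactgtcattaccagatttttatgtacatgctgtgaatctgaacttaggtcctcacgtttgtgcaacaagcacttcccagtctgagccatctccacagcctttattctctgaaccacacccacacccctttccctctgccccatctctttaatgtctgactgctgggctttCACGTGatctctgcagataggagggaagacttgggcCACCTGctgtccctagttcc
Ccr9, chr9:123766961-123767210: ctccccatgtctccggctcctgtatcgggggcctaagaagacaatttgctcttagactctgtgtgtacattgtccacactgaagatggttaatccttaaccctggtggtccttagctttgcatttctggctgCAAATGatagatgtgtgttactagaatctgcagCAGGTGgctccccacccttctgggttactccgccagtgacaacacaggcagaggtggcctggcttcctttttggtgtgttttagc
Itgax, chr7:128129300-128129549: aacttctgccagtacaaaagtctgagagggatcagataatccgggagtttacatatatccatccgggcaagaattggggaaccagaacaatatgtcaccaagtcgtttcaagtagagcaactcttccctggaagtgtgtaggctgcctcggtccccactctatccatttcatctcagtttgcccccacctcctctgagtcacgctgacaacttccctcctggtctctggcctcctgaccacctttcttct
The Siglech stretch holds 3 matches, 235, 56 and 20 bases before the start site, and the Ccr9 stretch holds 2, at 118 and 85 bases. No match lies in the Itgax stretch. These 3 do not stand for their classes: the conventional genes Zbtb46, Cd209a, Batf3 and Flt3 held 5, 2, 2 and 1. The start sites of the plasmacytoid gene Irf8 held 0 and 2. Such stretches were found for 8 of the 10 members, with 9 start sites, and 7 of these 9 held a match, against 66.2% of 32851 stretches over all genes. The narrower form CACCTG, which lies within CANNTG and was searched on both strands, was present in 4 of the 9 (Siglech, Ccr9, Zbtb46 and 1 start site of Irf8) against 17.2% of all. The IRF pair motif and the ETS-IRF composite motif, searched on both strands, were in 0 of the 9, against 2.98% and 2.30% of all. A match in these letters describes the sequence and is not evidence of binding.

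The arrays had median intensities from 44.8 to 45.6. Untreated mouse 3 stood apart: over all probe sets, which do not count as replicates, its r with each other array was between 0.982 and 0.985, while the other 5 reached 0.991 to 0.994 with each other. It had 851 probe sets more than 2-fold away from what the rest showed in the median, and the other arrays had 44 to 67. Values of several members and lists are given with and without this mouse. The marrow label was checked against markers: 7 of 7 neutrophil and 5 of 6 erythroid markers were above the median intensity of the probe sets, as were 7 of 9 B lineage and 2 of 5 T cell markers. Changes are given as NOX-A12 minus untreated, computed from log2(intensity + 16), which understates the change of dim probe sets, and their errors are standard errors (SE) from limma. A probe set is called dim here when its mean over the mice is below 45.3, the median of all probe sets. Intensities of different probe sets are not comparable with each other.

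None of the 10 genes passed the test for a difference between the groups. In limma with Benjamini-Hochberg adjustment over all 45037 probe sets, 0 of the 23 member probe sets had an adjusted p under 0.05, and the background was 0% (0 probe sets called over the whole array). At an unadjusted p under 0.05, 3 of the 23 were lower with NOX-A12 and 0 were higher, where 3.1% of all probe sets were lower and 1.88% higher, 4.97% in all. The 3 were in Ccr9, Tcf4 and Zbtb46. Groups did not overlap for 4 of the 23, all lower (a probe set each of Ccr9, Tcf4, Itgax and Zbtb46), against 5.85% of all probe sets lower and 4% higher. In each of the 3 of these genes with several probe sets, the other probe sets overlapped between groups.

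**Figure D1:**
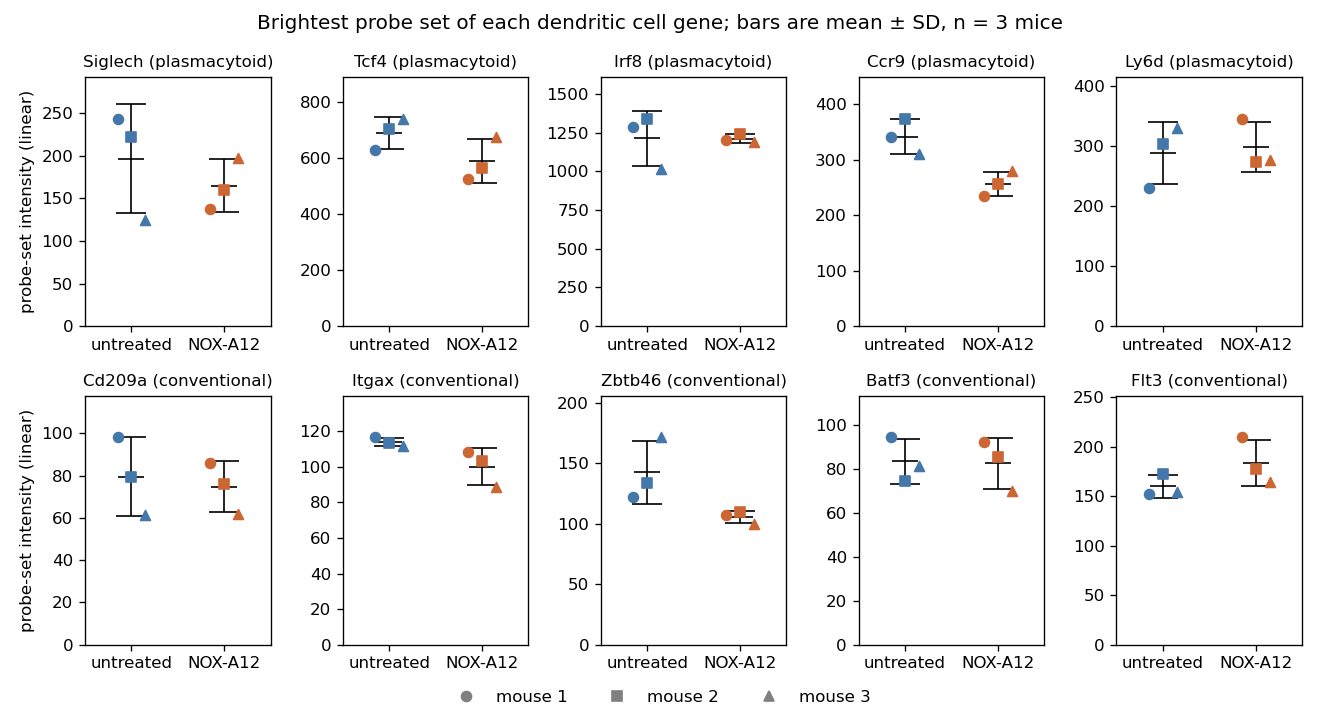
Linear probe-set intensity of the brightest probe set of each gene in each of the 6 mice (points, shaped by mouse number) with the mean and SD of each group (n = 3). The groups separate for Ccr9, Itgax and Zbtb46 and overlap for the other 7 genes, and untreated mouse 3 is the lowest of the 6 for Siglech, Irf8 and Cd209a.

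Siglech, the surface lectin that defines plasmacytoid cells in the mouse, is read by 1 probe set. Its intensity was 244, 222 and 125 in untreated mice 1 to 3 and 137, 160 and 198 in NOX-A12 mice 1 to 3. Untreated mice 1 and 2 were the highest of all, untreated mouse 3 was the lowest of all, and so the groups overlapped. The means were 197 ± 63.5 (SD, n = 3) and 165 ± 30.7 (SD, n = 3), a log2 change of -0.20 ± 0.24 with a 95% interval from -0.77 to 0.38 (limma adjusted p = 0.967). Single mice decided its size: without untreated mouse 3 it was -0.47 and still did not pass (limma adjusted p = 0.912), and without NOX-A12 mouse 3 it was -0.32. It shrank to -0.03 without untreated mouse 1, -0.09 without untreated mouse 2 and -0.08 without NOX-A12 mouse 1.

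Ccr9, the receptor for the chemokine CCL25 and a surface mark of mature plasmacytoid cells, gave the largest difference among the brightest probe sets of the plasmacytoid genes. That probe set read 339.8, 374 and 311 in the untreated mice and 235, 256 and 279 in the treated mice. Every treated mouse was below every untreated mouse, and the means were 341 ± 31.5 and 257 ± 21.8 (SD, n = 3 each). The log2 change was -0.39 ± 0.11 (95% interval -0.65 to -0.13, limma adjusted p = 0.926), about 76.3% of the untreated level on the offset scale. It was -0.45 without untreated mouse 3. Its name ends in _x_at, the manufacturer's mark for probes that may also bind other transcripts. The next brightest Ccr9 probe set read 122, 133 and 87.9 in untreated and 100.01, 100.4 and 109.6 in treated mice. Here untreated mouse 3 was the lowest of all 6, and the change was -0.11 ± 0.15. It was -0.26 without that mouse, -0.06 without untreated mouse 1 and -0.0060 without untreated mouse 2. The 3 other Ccr9 probe sets were dim, with changes from -0.12 to 0.23. At 1 of these, 1421919_a_at, the change was 0.05, and it was -0.31 without untreated mouse 3.

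Tcf4, the transcription factor that sets the plasmacytoid fate, is read by 6 probe sets that did not behave alike. The brightest read 629, 705 and 741 in the untreated mice and 527, 567 and 677 in the treated mice. Only NOX-A12 mouse 3 reached into the untreated range, and the change was -0.23 ± 0.12 (95% interval -0.52 to 0.06, limma adjusted p = 0.967). A second, 1416723_at, read 694, 789 and 638 in the untreated and 517, 549 and 632 in the treated mice. All treated mice lay below all untreated mice there, by a narrow margin between NOX-A12 mouse 3 and untreated mouse 3, with a change of -0.31 ± 0.12 (95% interval -0.60 to -0.03, limma adjusted p = 0.967). At the other 4 probe sets, 1 of them dim, the changes ran from -0.12 to 0.0040, and untreated mouse 3 was the lowest of the 6 mice. The brightest of these 4, 1416724_x_at, read 618, 693 and 403 in the untreated and 521, 541 and 616 in the treated mice, so that its change was 0.00071 ± 0.20 with untreated mouse 3 and -0.23 without it. Without that mouse all 6 Tcf4 probe sets gave negative changes, from -0.38 to -0.16, and 0 passed.

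Irf8, a transcription factor needed by plasmacytoid and type 1 conventional cells and by monocytes, was bright in both groups, and the treated mice lay close together. Its brightest probe set read 1287, 1339 and 1012 in the untreated and 1201, 1243 and 1189 in the treated mice. The treated values lay inside the untreated range, whose lower end was again untreated mouse 3. The change was 0.0083 ± 0.12 with a 95% interval from -0.28 to 0.30, and -0.12 without that mouse (limma adjusted p = 0.998 and 0.965). The other Irf8 probe set gave 0.03 ± 0.13.

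Ly6d, a surface protein of lymphoid progenitors that lead to B cells and to part of the plasmacytoid cells, read 231, 303 and 330.3 in the untreated and 345, 273 and 276 in the treated mice. The highest value was in NOX-A12 mouse 1 and the lowest in untreated mouse 1, with the rest intermingled. The change was 0.05 ± 0.16 (95% interval -0.32 to 0.42), and it was -0.09 without untreated mouse 1 and -0.05 without NOX-A12 mouse 1.

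Among the conventional genes, Zbtb46 had the largest difference, at 1 of its 4 probe sets. This transcription factor is restricted within the immune system largely to conventional dendritic cells and their committed precursors. The brightest probe set read 122, 134 and 172 in the untreated and 107, 109.9 and 99.8 in the treated mice. The groups did not overlap, although untreated mouse 1 and NOX-A12 mouse 2 were close, and the means were 142 ± 25.9 and 106 ± 5.20 (SD, n = 3 each). Its log2 change was -0.37 ± 0.13 (95% interval -0.68 to -0.06, limma adjusted p = 0.967), and -0.24 without untreated mouse 3, the highest of the 6. The 3 other Zbtb46 probe sets gave 0.06 ± 0.11, 0.0024 ± 0.11 and, at a dim one, 0.01 ± 0.12. The second brightest of the 4 read 104.9, 84.3 and 98.4 in untreated and 103, 91.9 and 106 in treated mice, so the difference at the brightest was not seen there.

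Itgax encodes CD11c, the integrin chain used to identify dendritic cells. It read 117, 114 and 112 in the untreated and 108, 103 and 88.4 in the treated mice. The untreated mice were closely spaced and all 3 treated mice were below them, with NOX-A12 mouse 3 furthest away. The change was small, -0.17 ± 0.10 (95% interval -0.40 to 0.07, limma adjusted p = 0.967), and -0.09 without NOX-A12 mouse 3.

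Cd209a, a lectin of type 2 conventional and monocyte-derived dendritic cells, read 98.1, 79.4 and 61.2 in the untreated and 86.1, 76.2 and 61.9 in the treated mice. The groups covered nearly the same range, and the change was -0.07 ± 0.17 (95% interval -0.46 to 0.33). It was -0.21 without untreated mouse 3 and -0.15 without NOX-A12 mouse 1, but 0.07 without untreated mouse 1 and 0.04 without NOX-A12 mouse 3. Batf3, the factor on which the type 1 branch depends, read 94.4, 74.6 and 81.4 in the untreated and 92.4, 85.5 and 69.8 in the treated mice. Its groups overlapped as fully, with a change of -0.01 ± 0.13 (95% interval -0.31 to 0.28).

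Flt3, the growth factor receptor that drives the formation of both types, was the only conventional gene whose brightest probe set was higher with NOX-A12. It read 153, 173 and 154 in the untreated and 209, 177 and 164 in the treated mice. NOX-A12 mouse 1 was well above the rest and the others overlapped. The change was 0.18 ± 0.11 (95% interval -0.09 to 0.45, limma adjusted p = 0.967), and 0.09 without NOX-A12 mouse 1.

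**Figure D2:**
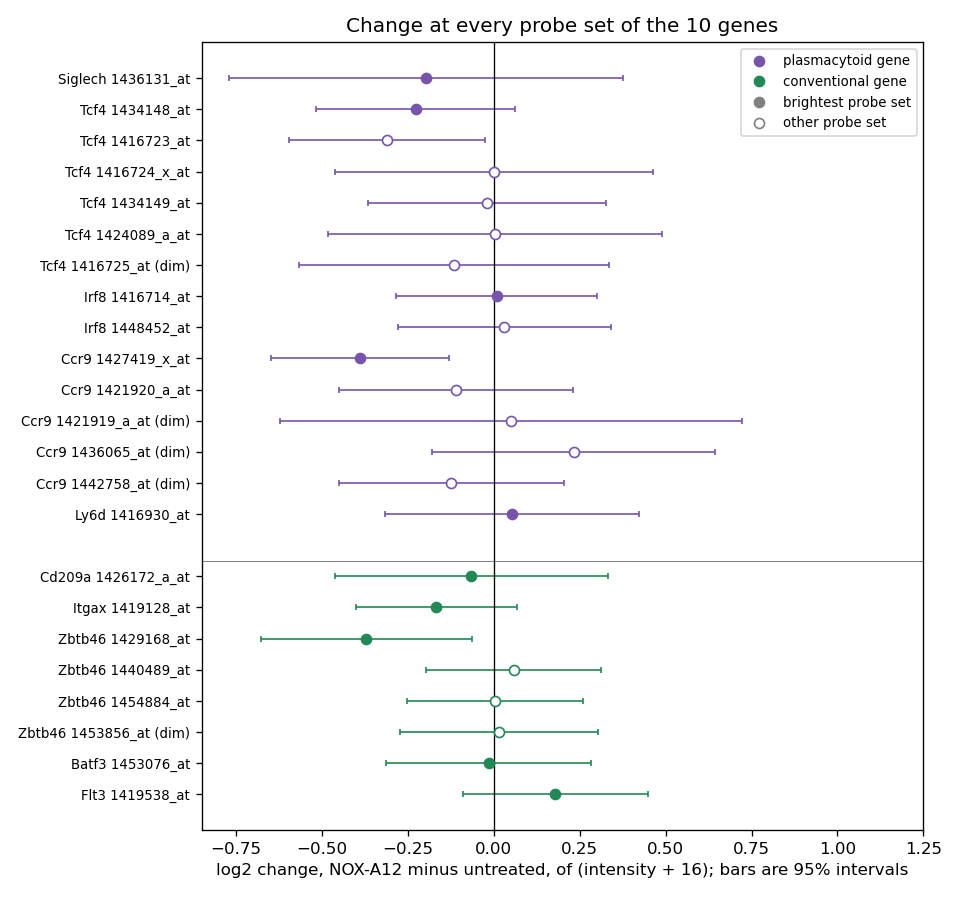
Log2 change, NOX-A12 minus untreated, with its 95% interval at each of the 23 probe sets, grouped by gene and class (filled, brightest probe set of the gene; open, the others; dim, below the median intensity of all probe sets). The intervals of 3 probe sets, in Tcf4, Ccr9 and Zbtb46, lie wholly below 0, and none lies wholly above it.

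The plasmacytoid and conventional genes were then set side by side. Taking the brightest probe set of each gene, 3 of 5 plasmacytoid and 4 of 5 conventional genes were lower with NOX-A12, where 52.8% of all 18193 genes were lower. The median change was -0.20 for the plasmacytoid genes, from -0.39 to 0.05, and -0.07 for the conventional genes, from -0.37 to 0.18, beside -0.0088 for all genes. Groups did not overlap for 1 plasmacytoid and 2 conventional genes, all lower, against 6.65% of all genes lower and 3.92% higher. Over all probe sets of the members the medians were -0.02 for 15 plasmacytoid and -0.0062 for 8 conventional probe sets. Leaving out the brightest Ccr9 probe set with the others that end in _x_at or _s_at brought the plasmacytoid median to -0.11. It was -0.09 without untreated mouse 1 or 2, -0.08 without NOX-A12 mouse 1 and -0.32 without NOX-A12 mouse 3. The conventional median moved as much: it was 0.06 without untreated mouse 1 and 0.04 without NOX-A12 mouse 3, but -0.18 without untreated mouse 3 and -0.15 without NOX-A12 mouse 1. With untreated mouse 3 left out, both medians came to -0.18, so the gap between the medians was not kept. Each median is the value of 1 middle gene, there Tcf4 and Itgax. In that setting the plasmacytoid genes ran from -0.47 to 0.16 and the conventional genes from -0.24 to 0.16.

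Within mice the classes did not keep step. As the mean of log2 deviations from each gene's average over the 6 mice, the plasmacytoid genes stood at 0.08, 0.20 and -0.05 in untreated mice 1 to 3 and at -0.13, -0.11 and 0.01 in NOX-A12 mice 1 to 3. The conventional genes stood at 0.09, 0.03 and 0.02 in the untreated and 0.08, -0.02 and -0.20 in the treated mice. NOX-A12 mouse 1 was thus lowest for the plasmacytoid genes and close to the highest for the conventional ones, while NOX-A12 mouse 3 was lowest for the conventional genes and above untreated mouse 3 for the plasmacytoid ones. The difference of the classes, plasmacytoid minus conventional, was -0.0093, 0.17 and -0.07 in the untreated and -0.22, -0.09 and 0.21 in the treated mice, so the treated values enclosed the untreated ones. With the median of the same deviations in place of the mean, the plasmacytoid genes stood at 0.09, 0.15 and 0.07 in the untreated mice. They stood at -0.27, -0.13 and -0.02 in the treated mice, so the groups did not overlap in these medians. The conventional medians overlapped, at 0.11, 0.05 and -0.02 against 0.14, -0.00028 and -0.23. No p-value is given for these scores, since the members were chosen with results of these data known.

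**Figure D3:**
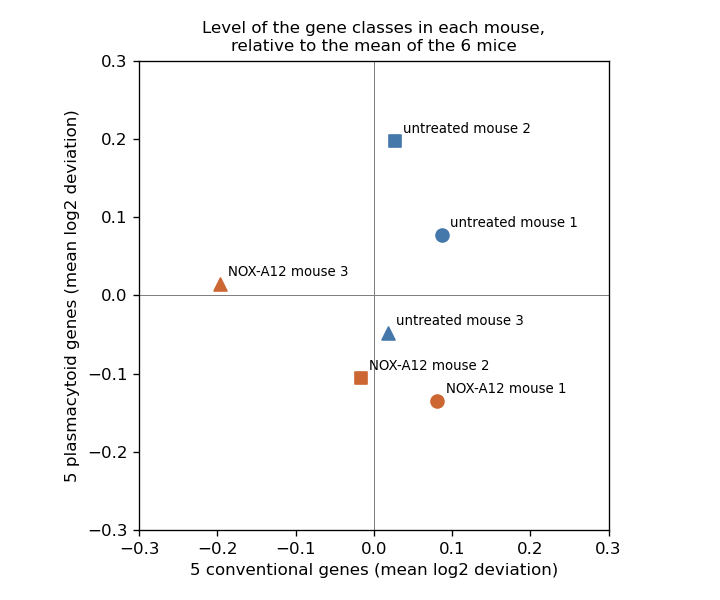
Each point is a mouse, placed by the mean log2 deviation of the 5 conventional genes (horizontal axis) and of the 5 plasmacytoid genes (vertical axis) from their average over the 6 mice. The treated mice spread from -0.20 to 0.08 horizontally, the untreated mice only from 0.02 to 0.09, and vertically both groups overlap in these means.

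Other genes of these cells were taken from 6 lists, with 64 of 72 genes measured, each at its brightest probe set. In limma 0 of them passed over all probe sets (lowest adjusted p = 0.926). Over all genes, 3.52% were lower and 1.78% higher at an unadjusted p under 0.05. Of 15 other plasmacytoid genes 11 were lower (median -0.06), and 3 were lower at that level: Irf7, the amplifier of interferon production (-0.44 ± 0.10), Pacsin1, a membrane-bending protein of plasmacytoid cells (-0.39 ± 0.12), and Mctp2 (-0.24 ± 0.09). Irf7 read 819, 829 and 764 in the untreated and 630.01, 534 and 602 in the treated mice. The groups did not overlap for these 3 of the 15 genes, against the 6.65% of all genes lower and 3.92% higher given above. Of 10 other type 1 conventional genes, 5 were lower and 5 higher (median -0.0054). Cadm1, an adhesion molecule, gave -0.46 ± 0.15, and Xcr1, the chemokine receptor of the type 1 branch, gave 0.24 ± 0.10 but read below 10 in every mouse. Of 11 other type 2 conventional genes, 7 were lower (median -0.01), and the transcription factor gene Klf4 was higher by 0.32 ± 0.12. Among the 7 lower genes, 1 read below 10 in every mouse. Of 10 genes of dendritic maturation and migration, 5 were lower (median -0.02), and the activation marker Cd83 gave -0.37 ± 0.15.

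Class II presentation genes, which dendritic cells share with B cells and macrophages, had the lowest median of the 6 lists. Of 7 measured, 6 were lower (median -0.31), and the groups did not overlap for 4, all lower. Over all genes 52.8% were lower, and 6.65% were lower without overlap. The 4 class II genes without overlap were Cd74 (-0.41 ± 0.09), H2-Eb1 (-0.40 ± 0.10), H2-Aa (-0.37 ± 0.10) and H2-Ab1 (-0.31 ± 0.09). H2-Eb1, a chain of the class II molecule, read 572, 571 and 652 in the untreated and 436, 464 and 448 in the treated mice. In the list of Flt3 and growth factor signalling, 5 of 11 genes were lower and 6 higher (median 0.05), and Pik3cd, a lipid kinase subunit, was higher by 0.24 ± 0.10.

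Markers of other marrow cells, some of which express the members too, are given beside these values. Of 9 B lineage markers 8 were lower, with a median of -0.29, and their summed intensity ranged from 4641 to 5823 in untreated and from 3521 to 4722 in treated mice. Natural killer markers were lower in 6 of 7, with a median of -0.37 and sums of 2709 to 2756 against 1965 to 2540. Macrophage markers were lower in 6 of 8, with a median of -0.13 and sums of 6808 to 7347 against 6422 to 7015. Monocyte markers were lower in 3 of 7, with a median of 0.31, and sums of 6004 to 9354 against 9726 to 12009. Groups did not overlap for 2 of the 7, both higher, against 3.92% of all genes higher. These were Cd14 (399 to 525 against 1420 to 2687) and F13a1 (1738 to 2961 against 3017 to 3662). Each sum is led by the brightest markers of its list and does not measure cell number. In the natural killer list the brightest was Gzma, with means of 1452 and 1346. The low end of the untreated monocyte sums was untreated mouse 3, the mouse that was also lowest for Siglech and Irf8. Without it 4 of the 7 monocyte markers were lower and the median turned to -0.05. Stromal reticular markers, Cxcl12 among them, were lower in 8 of 8, with a median of -0.50 and sums of 6454 to 7677 against 4709 to 5504. Groups did not overlap for 6 of these 8, all lower, against 6.65% of all genes lower. The same held for 3 of 9 B lineage, 3 of 7 natural killer and 3 of 8 macrophage markers, all lower. The neutrophil list had 1 such gene, lower, and the T cell and skeletal muscle lists 1 each, higher. Progenitor genes, which bear on Flt3, were lower in 5 of 8, with a median of -0.03. The T cell, neutrophil, erythroid and skeletal muscle lists had medians of 0.06, 0.0035, 0.04 and 0.01. Without single mice the class II, B lineage, natural killer, macrophage and stromal medians stayed below 0 in each case, from -0.33 to -0.28, -0.38 to -0.23, -0.50 to -0.27, -0.21 to -0.10 and -0.57 to -0.45. The other plasmacytoid genes also stayed below 0, from -0.10 to -0.0050, while the medians of the type 1, type 2, maturation, Flt3 signalling, progenitor, T cell, monocyte, neutrophil, erythroid and muscle lists each changed sign without at least 1 of the mice. Among the markers of other cells, 1 read below 10 in every mouse, the skeletal muscle gene Tnnt3. The part of these other cells in the values of the dendritic genes was not tested.

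**Figure D4:**
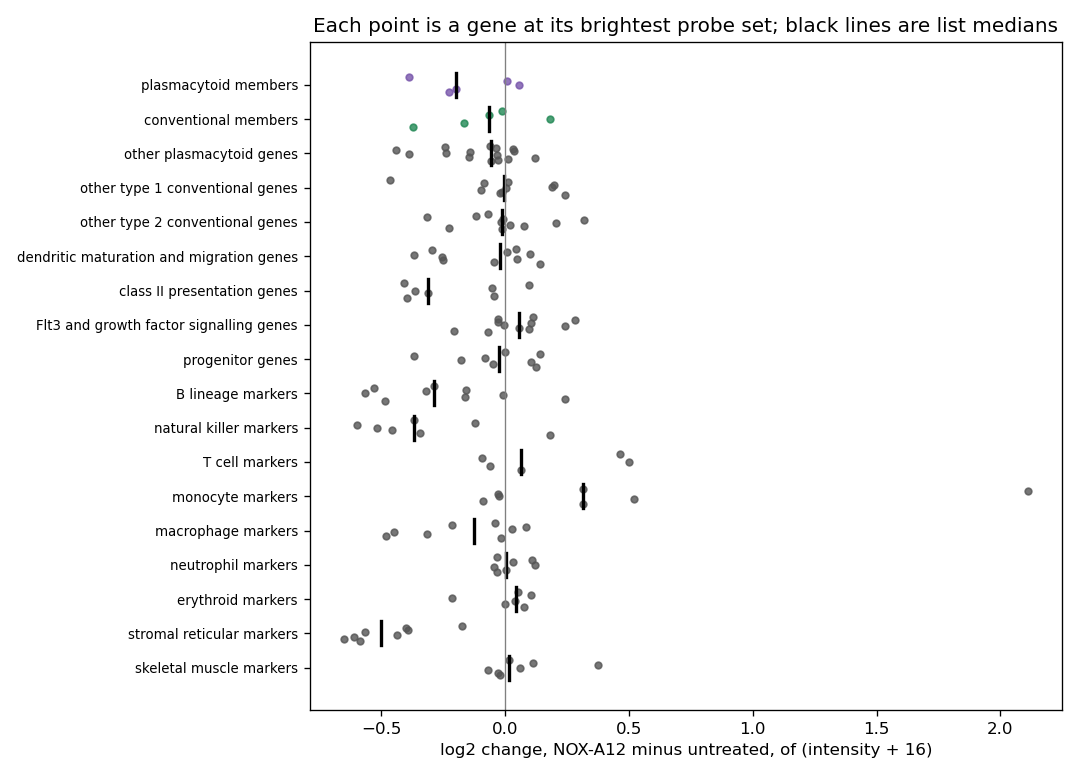
Log2 change, NOX-A12 minus untreated, of each gene at its brightest probe set in 18 lists, with the list median as a black line. The plasmacytoid and conventional members have medians of -0.20 and -0.07, the class II genes -0.31 and the stromal markers -0.50, and the point at the far right is the monocyte gene Cd14 at 2.11.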

How the data were processed

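The authors deposited probe-set intensity values in a single table for the series, already summarised per probe set, with array medians of log2 values within 0.019 of each other; the sources used here do not name the software or normalization, and no further normalization was applied. Total RNA was labelled with biotin, per the labels' protocols, and groups come from the sample titles, which number separate mice. Probe sets were named through the platform annotation (34945 with 1 symbol, 932 with several, 9160 with none listed), and the symbols of all 23 member probe sets matched the reference gene table.

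Intensities were transformed to log2(intensity + 16) and tested two-sided with limma 3.58.1 (R 4.3.3, eBayes after lmFit) on all 6 arrays without covariates. P-values were adjusted by Benjamini-Hochberg over 45037 probe sets, with a threshold of 0.05 and 7.24 moderated degrees of freedom. The script was tested on simulated data. Genes are represented by the probe set of highest mean. Named genes are all members, and from each of the 6 other dendritic and signalling lists up to 4 with an unadjusted p under 0.05. From the marker lists of other cells only Cd14, F13a1, Gzma, Cxcl12 and Tnnt3 are named, as examples and not by that rule. The members and lists were chosen with earlier results of these data known. Motifs were counted in 250 bases before RefSeq start sites. Precision is limited by the number of arrays. Alternatives were other normalizations, an offset of 1 or 64, leaving out dim probe sets, other variance models, array weights, a block on mouse number, other choices of probe set (suffixes _x_at and _s_at mark probes that may bind other transcripts, _a_at transcripts of the same gene) and leaving out each mouse.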

Additional observations from a re-analysis of the deposited data

How the results depend on the processing

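No member probe set passed under any of the 10 other settings or without any of the 6 mice (0 throughout), with the lowest limma adjusted p at 0.620, without untreated mouse 1. At an unadjusted p under 0.05 there were 3, with 2 or 3 under the other settings and 1 (without NOX-A12 mouse 1) to 6 (without untreated mouse 3) when single mice were left out. The mouse number as a replicate block also gave 0 calls. In this balanced layout a block cannot alter the changes, only their errors. The medians of -0.20 and -0.07 therefore stayed the same by construction. Deviations of same-numbered mice from their group means correlated at -0.09, 0.05 and 0.03, and those of differently numbered mice at -0.21 to 0.22. These values cannot settle whether mice were paired, since deviations within a group of 3 sum to 0. The numbers were not taken as pairing the mice.

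The plasmacytoid median of -0.20 was 0.0083 without probe sets ending in _x_at, _s_at or _a_at, which leaves only dim ones for Ccr9. It was -0.11 with those ending in _a_at kept, a setting added after seeing the data, -0.069 with each gene's probe sets averaged and -0.020 over all probe sets, and ran from -0.32 to -0.084 without single mice. The conventional median of -0.07 ran from -0.18 to 0.063 without single mice, and was above 0 without untreated mouse 1 or NOX-A12 mouse 3.

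Of the 23 probe sets, 10 kept their sign under every alternative that could be fitted, among them the brightest of Siglech, Tcf4, Ccr9, Itgax, Zbtb46 and Flt3. Some alternatives could not alter the change of a probe set that stayed in. These were the other variance models, the block on mouse number and leaving out probe sets. Of 355 changes recomputed, these fixed ones included, 37 had the other sign. Array weights did so for Batf3 (0.024), both Irf8 probe sets (-0.053 and -0.064), Ccr9 1421919_a_at (-0.096), Tcf4 1416724_x_at and 1424089_a_at (-0.14 each) and Zbtb46 1453856_at (-0.047). Quantile normalization did so for the brightest of Irf8 (-0.016), Tcf4 1416724_x_at (-0.011) and Zbtb46 1454884_at (-0.0011), and an offset of 64 for Tcf4 1416724_x_at (-0.0018) and 1424089_a_at (-0.0011). The cause was not tested.

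Without single mice, the changes that altered sign ran from -0.087 to 0.081 for Batf3, -0.21 to 0.072 for Cd209a, -0.090 to 0.16 for Ly6d, -0.12 to 0.084 and -0.092 to 0.14 for Irf8, and -0.31 to 0.28 for Ccr9 1421919_a_at. For Tcf4 they ran from -0.23 to 0.15 at 1416724_x_at, -0.31 to 0.044 at 1416725_at, -0.24 to 0.16 at 1424089_a_at and -0.16 to 0.069 at 1434149_at. For Zbtb46 they ran from -0.019 to 0.12 at 1440489_at, -0.062 to 0.10 at 1453856_at and -0.068 to 0.053 at 1454884_at.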
